A study of Mus musculus with 11 samples.

Results

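Genes of mitosis are expressed in dividing cells, which make up a share of thymocytes. Here 41 genes of mitosis and of the G2/M transition, of 54418 genes in the count table, were followed by RNA-seq in thymocytes of 3 genotypes: wild-type (wt) mice, Zmat3-/- mice, and Zmat3-/-Puma-/-p21-/- triple knockout (TKO) mice. The list holds the M-phase cyclins and their kinase, mitotic kinases, proteins of the centromere and kinetochore, spindle motors, cytokinesis factors and common proliferation markers. All 41 genes were found in the table by symbol, and all 41 had enough counts to be tested in each of the 3 comparisons. None of them passed the test for a difference between genotypes, while the level of most members together differed between mice of the same genotype.

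The 11 samples were thymocytes of mice of 8 to 12 weeks on the C57BL/6-WEHI background, 4 from wt, 4 from Zmat3-/- and 3 from TKO mice. Both mutant groups lacked Zmat3 in every tissue of the animal, and only the TKO group also lacked Puma (Bbc3) and p21 (Cdkn1a), so that the TKO mice were not compared with mice lacking Puma and p21 alone. The labels number the samples within a genotype and do not give their sex, and each sample is called a mouse here. P-values measure the spread between these samples.

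Cells that pass from G2 into mitosis need cyclin A and cyclin B bound to CDK1, and the transcription factor FOXM1 drives many of the genes used in this phase together. Without proliferation these genes are kept silent by the DREAM complex, which binds the cell cycle genes homology region (CHR) in their promoters. The CDK inhibitor p21 keeps DREAM in its repressive form, and TRP53 lowers mitotic genes through p21 in this way. In the thymus, division is concentrated in immature cells after rearrangement of the T cell receptor beta chain, and most small CD4+CD8+ thymocytes are quiescent.

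Because the members had the same highest or lowest mouse in many cases, their promoters are shown first. RefSeq promoter windows, from 250 bases before to 50 after the start of transcription on GRCm38.p6, were matched by symbol for 34 of the 41 members. Ccna2, Cdc25c, Aurkb, Kif20a, Tpx2, Dlgap5 and Foxm1 were not matched. The CHR letters TTTGAA occurred on either strand in 24 of the 34 members (70.6%), against 20.2% of 27025 genes with a window and 16.7% of 24 genes of an S-phase list. The CCAAT box, letters CCAAT, was in 76.5% of members and 41.1% of all genes, and 58.8% of members against 7.97% of all genes held both. The CHR variant TTCGAA was in 11.8% of members and 1.80% of all genes. The letters GCGGGAA of an E2F-like site were in 0 of 34 members, 45.8% of the S-phase list and 5.29% of all genes. TTCGAA reads the same on both strands. A match is a string of letters and was not tested as a binding site.

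The following windows of 100 bases lie before the start of transcription and outside annotated exons. They show 4 members with a CHR and Birc5, the member with the lowest values in both mutants against wt, without one in its window. Capitals mark the CHR (TTTGAA, or TTCAAA when on the opposite strand) and the CCAAT box (CCAAT, or ATTGG on the opposite strand).
Top2a: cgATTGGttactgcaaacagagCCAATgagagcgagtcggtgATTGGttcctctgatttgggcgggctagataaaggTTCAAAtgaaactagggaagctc
Kif11: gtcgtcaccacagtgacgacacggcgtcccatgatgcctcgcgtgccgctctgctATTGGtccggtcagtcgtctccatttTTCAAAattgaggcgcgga
Cdk1: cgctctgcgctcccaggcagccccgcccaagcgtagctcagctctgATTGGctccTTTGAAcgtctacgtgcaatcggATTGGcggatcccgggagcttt
Mki67: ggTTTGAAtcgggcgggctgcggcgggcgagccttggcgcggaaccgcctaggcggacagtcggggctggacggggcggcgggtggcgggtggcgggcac
Birc5: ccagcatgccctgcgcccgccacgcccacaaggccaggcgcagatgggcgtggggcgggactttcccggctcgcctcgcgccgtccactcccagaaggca
These windows lie at chr11:99024190-99024289 (minus strand) for Top2a, chr19:37376282-37376381 (plus) for Kif11, chr10:69352939-69353038 (minus) for Cdk1, chr7:135716380-135716479 (minus) for Mki67 and chr11:117849137-117849236 (plus) for Birc5. In these windows the CHR began 23 bases before the start in Top2a, 19 in Kif11, 71 in Cdk1 and 98 in Mki67. In 11 of the 24 members with a CHR it was found before the start, and in the others only after it. As a description, the median log2FC of members with and without a CHR was -0.06 (24 genes) and -0.04 (10 genes) in Zmat3-/- against wt, -0.09 and -0.15 in TKO against wt, and -0.04 and -0.08 in TKO against Zmat3-/- mice.

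The libraries held between 17669715 (TKO mouse 2) and 80207003 (TKO mouse 3) counts. Levels are CPM (a gene's count relative to the scaled library size) with TMM factors over the 11 mice. Zmat3 was still counted, at 5.34 to 6.85 CPM in Zmat3-/- and 7.78 to 8.25 CPM in TKO mice. These values were below those of wt mice 1 to 4, at 9.88, 12.2, 26.8 and 26.8 CPM. Bbc3 was at 12.9 to 15.2 CPM in TKO mice and 15.3 to 20.1 CPM in the other mice, and Cdkn1a at 2.49 to 3.52 CPM in TKO and 3.53 to 10.4 CPM in the other mice. Counts per exon were not analysed here. The 12 thymocyte genes that were checked, among them Cd3e, Cd4, Cd8a, Rag1 and Dntt, were detected in every mouse (Cd4 at 959 to 1452 CPM), and so were the 6 B-cell, 6 myeloid, 6 erythroid and 7 stromal genes checked. wt mice 1 and 2 stood apart from wt mice 3 and 4 across the transcriptome, as described below for the members. The Xist level was high, 505 to 1485 CPM, in 5 mice, namely numbers 1 and 2 of the wt and of the Zmat3-/- group and number 1 of the TKO group. It was low, 0.806 to 2.54 CPM, in the remaining 6.

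Together the 41 genes made up 0.383% to 0.716% of the TMM-scaled counts of a mouse. Their summed level was 5654, 3874, 5141 and 4812 CPM in wt mice 1 to 4, 4934, 5449, 4666 and 3881 CPM in Zmat3-/- mice 1 to 4, and 3832, 3950.1 and 7159 CPM in TKO mice 1 to 3. TKO mouse 3 was thus the highest of the 11 and TKO mouse 1 the lowest, and the genotypes overlapped. The wt mean was 4870.2 ± 749 CPM (SD, n = 4). That of the Zmat3-/- mice was 4733 ± 654 CPM (SD, n = 4), and that of the TKO mice 4980.4 ± 1888 CPM (SD, n = 3). The 30 genes of DNA replication and S phase, summed in the same way, were also highest among TKO mice in mouse 3, at 4182 CPM against 2867 and 2818 CPM, but highest of all in wt mouse 1 at 4907 CPM. In bulk RNA, fewer dividing cells and less RNA of these genes per cell cannot be told apart.

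**Figure D1:**
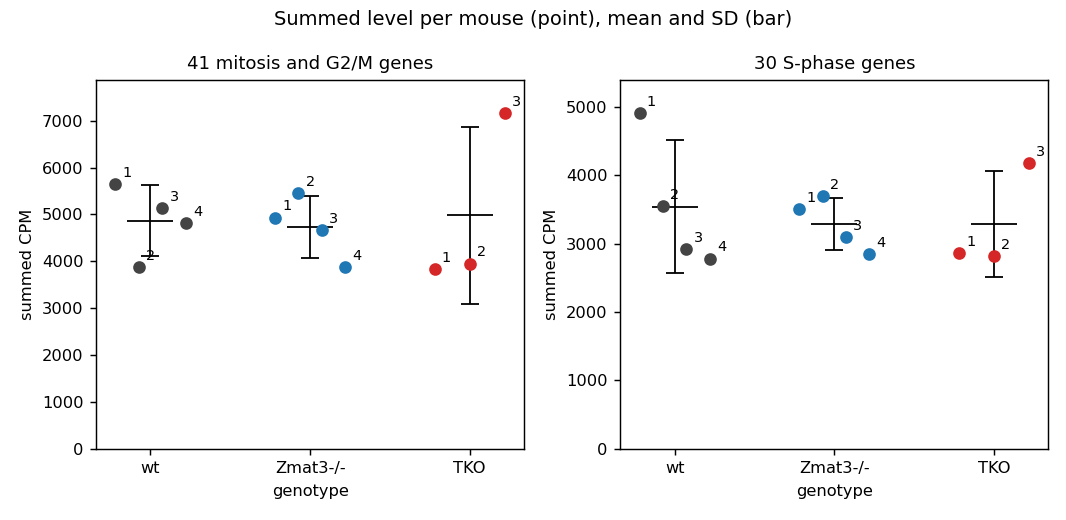
Summed CPM of the 41 mitosis and G2/M genes (left) and of 30 S-phase genes (right) in each mouse, by genotype. Points are mice with their replicate number, and bars give the mean and SD. TKO mouse 3 reached 7159 CPM on the left, against 3832 and 3950.1 CPM in the other TKO mice.

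Levels between genes can be compared only per length. Per kilobase of annotated exons, the mean over 11 mice was highest for Top2a (78.9 CPM per kb), Cks2 (77.1), Mki67 (71.6), Ccnb2 (55.8) and Ccna2 (44.2), and lowest for Cdc25c (2.70), Ttk (4.01) and Anln (4.09). With the length of the longest principal transcript (APPRIS) in place of all exons, Top2a stayed first at 136 CPM per kb and Cdc25c last at 6.82, while Birc5 moved from place 14 to 3 and Cenpa from 20 to 7. No member was near the limit of detection, since the lowest count of any member in any mouse was 142. Between its highest and lowest mouse, a member differed by 1.57-fold (Ttk) to 4.31-fold (Birc5).

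**Figure D2:**
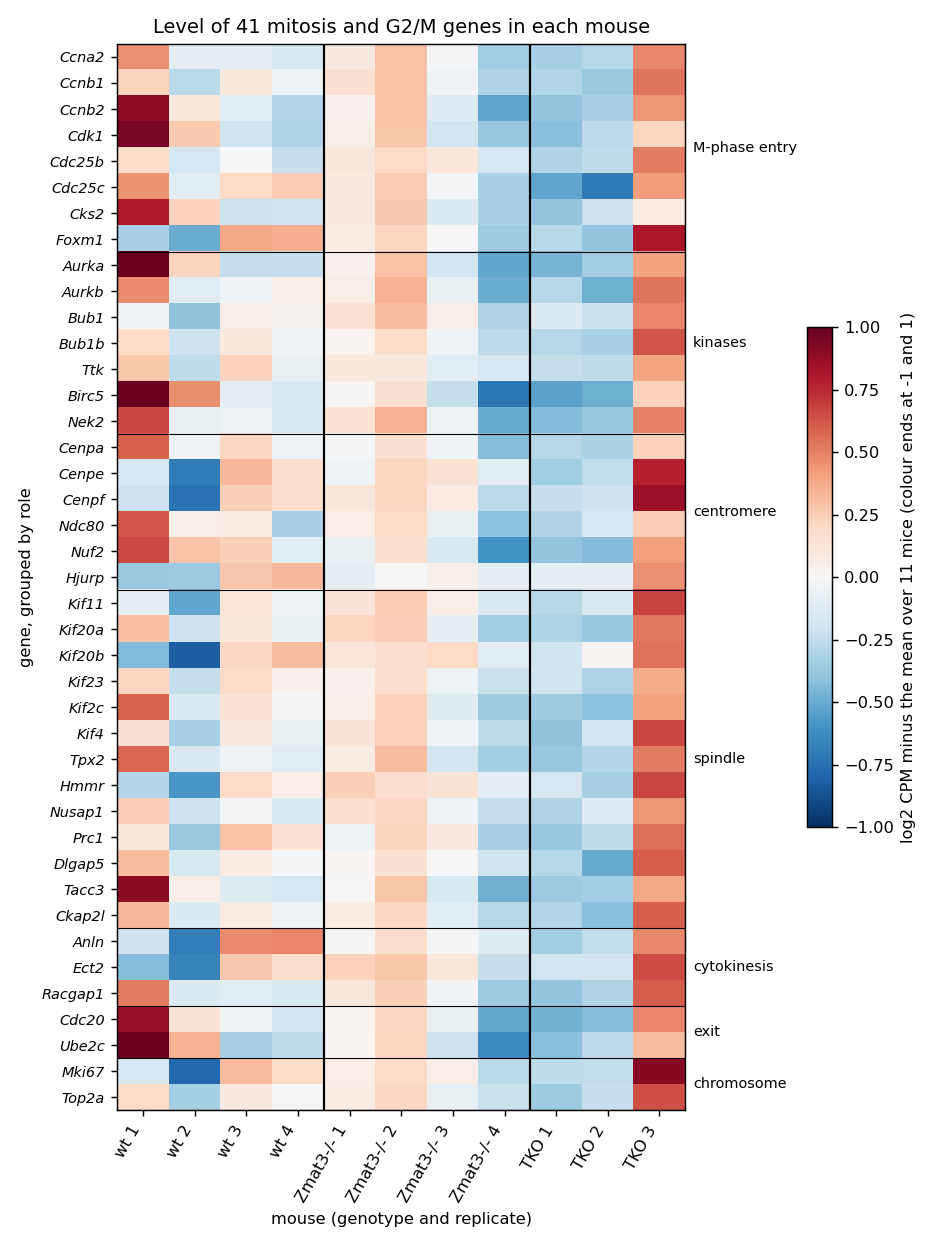
Log2 CPM of each of the 41 genes minus its mean over the 11 mice, with genes as rows grouped by role and mice as columns grouped by genotype (colours end at -1 and 1). TKO mouse 3 was above the mean for all 41 genes, Zmat3-/- mouse 4 and TKO mouse 1 for 0, and wt mouse 1 held the highest level of 15 genes.

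Of the 8 genes that bring cells into mitosis, 6 were on the lower side in each mutant group against wt, and none passed the test. Ccnb1, the cyclin that with CDK1 triggers mitosis, had 96.1, 68.3, 87.9 and 80.3 CPM in wt mice, 91.4, 101, 80.6 and 66.9 CPM in Zmat3-/- mice, and 67.2, 63.8 and 119 CPM in TKO mice. Ccna2, which acts in S phase and G2, had 243, 166, 165 and 158 CPM in wt, 188, 217, 174 and 139 CPM in Zmat3-/-, and 141, 146 and 246 CPM in TKO mice. In both genes the highest mouse was TKO mouse 3, the highest wt mouse was mouse 1, and all groups overlapped. Their log2FC in Zmat3-/- against wt mice was 0.04 ± 0.15 (SE) for Ccnb1 and -0.02 ± 0.18 for Ccna2. Cdk1 had 146, 90.6, 65.7 and 61.1 CPM in wt, 78.7, 91.8, 66.1 and 58.1 CPM in Zmat3-/-, and 56.7, 63.0 and 87.7 CPM in TKO mice. Only wt mouse 1 stood above the other 10 mice, and wt mice 3 and 4 were within the range of the mutants. Foxm1 showed the other pattern of the wt group, with 57.5 and 51.0 CPM in mice 1 and 2 and 94.1 and 93.0 CPM in mice 3 and 4. It had 76.0, 83.7, 72.2 and 56.2 CPM in Zmat3-/- mice and 59.4, 54.7 and 127 CPM in TKO mice, so that the Zmat3-/- mice lay within the wt range and TKO mouse 3 above it.

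Cdc25c, a phosphatase that activates CDK1, was the member with the lowest level per length. It had 17.6, 12.0, 14.8 and 15.4 CPM in wt, 13.7, 15.4, 12.7 and 10.3 CPM in Zmat3-/-, and 8.96, 7.89 and 17.2 CPM in TKO mice. TKO mice 1 and 2 were below all other mice, and TKO mouse 3 was near the top of the wt mice. The log2FC in TKO against wt mice was -0.47 (95% interval -1.06 to 0.13, adjusted p = 0.558 from edgeR's quasi-likelihood test). It was -0.80 without TKO mouse 3 and -0.30 without TKO mouse 2. Cks2, a small subunit bound to CDK1, had 90.4, 60.7, 44.6 and 45.2 CPM in wt, 55.2, 62.5, 47.1 and 41.5 CPM in Zmat3-/-, and 39.6, 44.8 and 54.9 CPM in TKO mice. It had the lowest p of the members in TKO against Zmat3-/- mice, with a log2FC of -0.21 (95% interval -0.50 to 0.08, adjusted p = 0.983 from edgeR) that was -0.11 without Zmat3-/- mouse 2, and its groups overlapped. Ccnb2 and Cdc25b completed this role, with a log2FC between -0.33 and 0.12 in the 3 comparisons.

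The 7 mitotic kinases and their partners held the member with the most negative values. Birc5 (survivin), a subunit of the chromosomal passenger complex that also contains Aurkb, had 208, 111, 74.7 and 72.2 CPM in wt, 80.6, 89.1, 67.8 and 48.3 CPM in Zmat3-/-, and 55.1, 57.0 and 93.9 CPM in TKO mice. Only wt mice 1 and 2 were above every mutant mouse. The log2FC was -0.69 ± 0.35 (SE, adjusted p = 0.369) in Zmat3-/- and -0.82 ± 0.39 (SE, adjusted p = 0.510) in TKO against wt mice by edgeR, which became -0.26 and -0.38 without wt mouse 1, and -0.05 and -0.18 without wt mice 1 and 2. Aurkb, the kinase of the complex, had 67.3, 45.0, 47.8 and 50.8 CPM in wt, 50.7, 61.9, 46.3 and 34.6 CPM in Zmat3-/-, and 39.9, 34.7 and 70.6 CPM in TKO mice. TKO mouse 3 was highest, Zmat3-/- mouse 4 and TKO mouse 2 were lowest, and the groups overlapped. The other kinase genes were Aurka, Nek2, Ttk and the checkpoint kinases Bub1 and Bub1b, with a log2FC against wt from -0.44 (Aurka in TKO) to 0.15 (Bub1 in Zmat3-/-), and 6 of the 7 genes of this role were on the lower side in each comparison.

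At the centromere, Nuf2, a subunit of the NDC80 complex that holds microtubules, had the lowest p of all members in Zmat3-/- against wt mice. It had 62.1, 47.9, 46.4 and 36.3 CPM in wt, 37.3, 44.2, 35.1 and 25.9 CPM in Zmat3-/-, and 29.8, 29.1 and 52.1 CPM in TKO mice. The lowest wt mouse, mouse 4, was below Zmat3-/- mice 1 and 2, so the groups overlapped. The log2FC was -0.43 (95% interval -0.87 to 0.02, adjusted p = 0.327 from edgeR) in Zmat3-/- and -0.44 (95% interval -0.97 to 0.08, adjusted p = 0.538) in TKO against wt mice, where it was -0.68 without TKO mouse 3. Cenpa, the histone variant that marks centromeres, had 139, 89.1, 106 and 88.3 CPM in wt, 90.6, 102, 89.4 and 68.5 CPM in Zmat3-/-, and 76.1, 73.8 and 108 CPM in TKO mice, with the groups overlapping. Ndc80 (the partner of Nuf2), the CENPA chaperone Hjurp, the motor Cenpe and the kinetochore protein Cenpf had a log2FC from -0.26 (Ndc80 in TKO against wt) to 0.25 (Cenpf in TKO against wt).

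Of the 13 spindle genes, 8 were on the lower side in Zmat3-/- (median log2FC -0.06) and 9 in TKO (-0.10) against wt mice. Kif11, the motor that pushes the spindle poles apart, was on the higher side in both. It had 223, 165, 257 and 228 CPM in wt, 259.5, 282, 247 and 214 CPM in Zmat3-/-, and 195, 213 and 378 CPM in TKO mice. wt mouse 2 was lowest, and wt mice 1, 3 and 4 lay within the range of the mutants. The log2FC against wt was 0.20 ± 0.16 (SE) in Zmat3-/- and 0.19 ± 0.23 in TKO mice. The motors Kif4, Kif20a, Kif20b, Kif23 and Kif2c, the spindle assembly factors Tpx2, Nusap1, Tacc3, Hmmr, Dlgap5 and Ckap2l and the midzone protein Prc1 spanned a log2FC from -0.36 (Tacc3 in TKO) to 0.24 (Hmmr in Zmat3-/-) against wt. In TKO against Zmat3-/- mice all 13 were on the lower side, by 0.10 at most on the log2 scale.

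In cytokinesis, Anln (anillin, a scaffold of the contractile ring) had 31.1, 22.3, 49.9 and 50.5 CPM in wt, 36.2, 40.6, 35.7 and 33.0 CPM in Zmat3-/-, and 28.3, 30.3 and 50.1 CPM in TKO mice. The Zmat3-/- mice lay in the gap between wt mice 1 and 2 and wt mice 3 and 4. Ect2, which activates RhoA at the division plane, and its partner Racgap1 had a log2FC from -0.09 to 0.22 against wt. Of the genes for exit from mitosis, Cdc20, an activator of the anaphase-promoting complex, had 141, 84.9, 75.6 and 67.7 CPM in wt, 78.7, 89.6, 73.7 and 54.2 CPM in Zmat3-/-, and 55.8, 57.8 and 108 CPM in TKO mice. Ube2c, its ubiquitin-conjugating enzyme, had a log2FC of -0.49 ± 0.34 (SE) in Zmat3-/- and -0.52 ± 0.38 in TKO against wt mice. For both genes wt mouse 1 was the highest of the 11 mice.

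The markers Mki67 and Top2a had the highest CPM of the members without regard to length, and per kilobase of exons they were places 3 and 1. Mki67, which coats mitotic chromosomes and is used to stain dividing cells, had 612, 402, 860.1 and 785 CPM in wt, 723, 789.6, 725 and 572 CPM in Zmat3-/-, and 580.0, 581 and 1298 CPM in TKO mice. Top2a, the topoisomerase that untangles sister chromatids, had 795, 553, 741 and 701 CPM in wt, 735, 804, 664 and 598 CPM in Zmat3-/-, and 545, 596 and 1092 CPM in TKO mice. TKO mouse 3 was the highest of all mice for both and the other TKO mice were among the lowest. The log2FC of Mki67 was 0.08 ± 0.24 (SE) in Zmat3-/- and 0.22 ± 0.35 in TKO against wt mice, and that of Top2a was 0.01 ± 0.16 and 0.02 ± 0.24.

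Zmat3-/- mice were compared with wt mice to ask what loss of Zmat3 alone did to these genes. By edgeR's quasi-likelihood test, 0 of the 41 members were called differentially expressed (DE), at an adjusted p under 0.05 and an absolute log2FC above 1.5, against 43 of 13494 tested genes (0.319%). At any fold change 0 members had an adjusted p under 0.05, against 0.763% of all genes, and 0 had an unadjusted p under 0.05, against 16.1%. DESeq2 gave 0 members by adjusted p (8.04% of all genes) and 1, Nuf2, with an unadjusted p under 0.05 (19.6% of all genes). Higher in Zmat3-/- mice were 13 members and lower 28, with a median log2FC of -0.06 beside -0.03 over all genes. Without wt mouse 1, 29 members were higher (median 0.03), and without Zmat3-/- mouse 4, 22 were (0.01). No member had groups that did not overlap, where 7.31% of all genes were higher and 6.75% lower without overlap. The 95% interval lay within -1 and 1 for 38 members and within -1.5 and 1.5 for all 41, so that the interval of each excluded the size used for calling.

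TKO mice were compared with wt mice for the loss of Zmat3, Puma and p21 together. Again 0 of 41 members were called DE by edgeR, against 32 of 13260 genes (0.241%). None had an adjusted p under 0.05 (0.294% of all genes) or an unadjusted p under 0.05 (10.3%), and DESeq2 gave 0 (2.87% of all genes) and 1, Birc5 (13.2%). Of the members 13 were higher and 28 lower, with a median log2FC of -0.11 beside -0.04 over all genes. In 0 members did the groups not overlap, against 6.95% of genes higher and 5.15% lower. The 95% interval lay within -1 and 1 for 31 members and within -1.5 and 1.5 for 40, all but Birc5 (-1.72 to 0.08). Without TKO mouse 3, 40 of 41 members were lower, with a median of -0.35, and without TKO mouse 1, 24 were higher, with a median of 0.03.

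For the loss of Puma and p21 on top of Zmat3, TKO mice were compared with Zmat3-/- mice. Here too edgeR called 0 of 41 members, against 16 of 13124 genes (0.122%), and 0 had an adjusted p under 0.05 (0.221% of genes) or an unadjusted p under 0.05 (4.5% of genes). DESeq2 gave 0 by both measures (0.556% and 4.69% of all genes). Only 7 members were higher and 34 lower, with a median log2FC of -0.05 beside -0.01 over all genes, and the interval of all 41 lay within -1 and 1. Groups without overlap were found for 0 members, against 3.49% of genes higher and 1.43% lower. The direction turned with the mice used. Among the mice with low Xist all 41 members were higher (median 0.25). Without TKO mouse 3 all 41 members were lower, with a median of -0.28, 18 had an unadjusted p under 0.05 (6.25% of all genes did in that fit) and 0 an adjusted p under 0.05, whereas without TKO mouse 1 34 were higher (median 0.05), without TKO mouse 2 31 (0.04) and without Zmat3-/- mouse 2 26 (0.03). The 3 comparisons share mice, so the directions are not independent of each other.

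**Figure D3:**
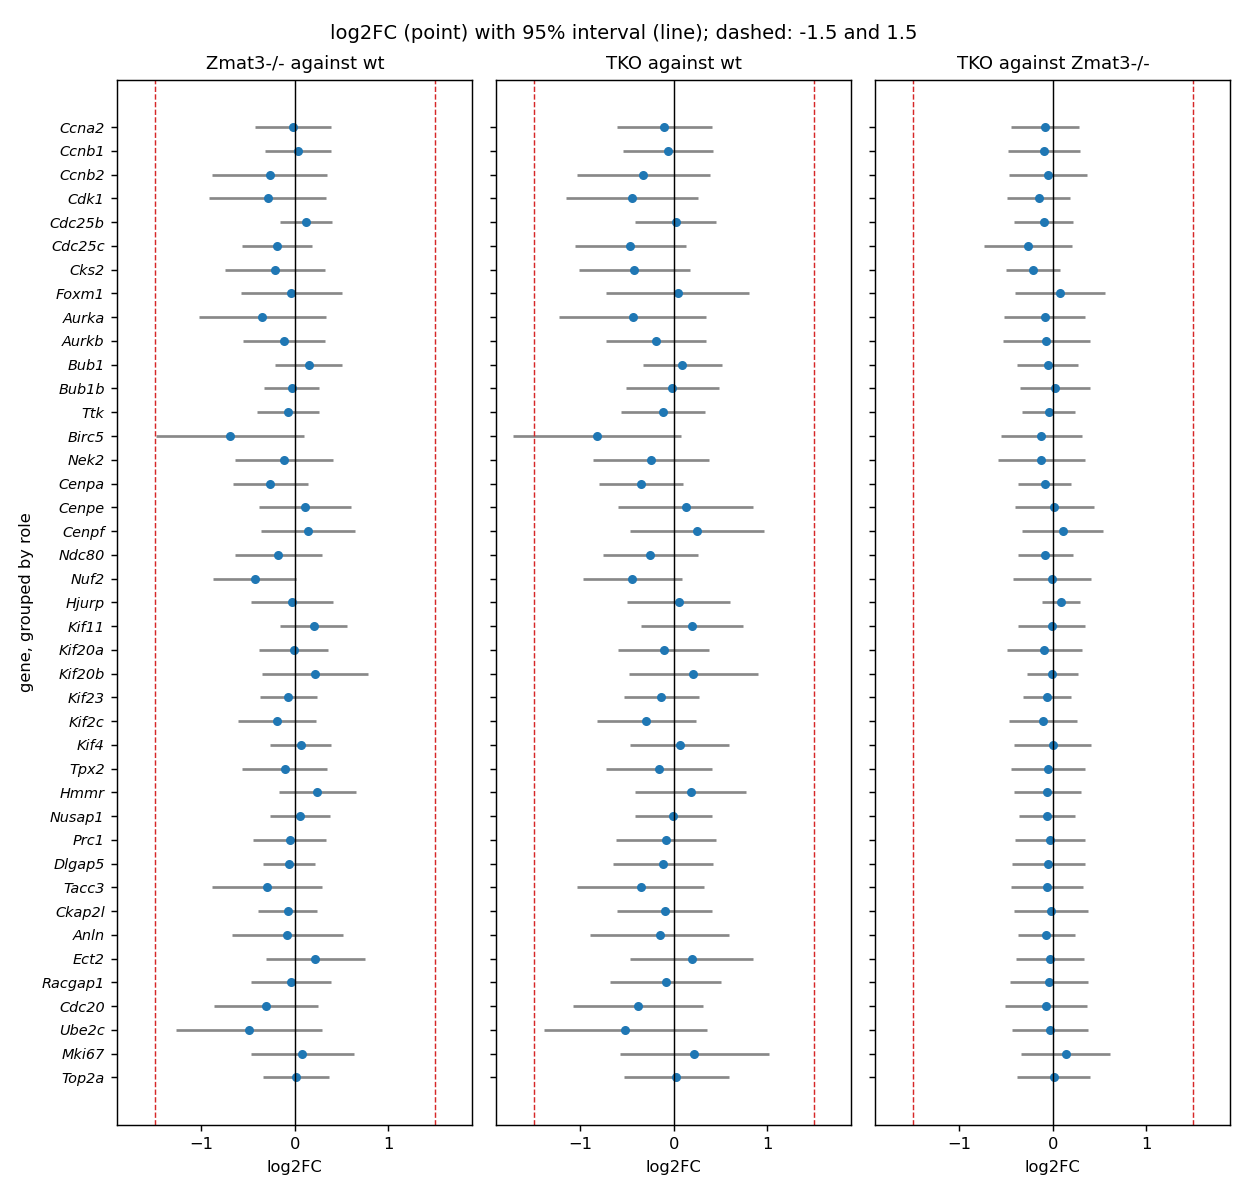
Log2FC (points) with 95% interval (lines) of the 41 members in the 3 comparisons, in the order of their roles. Dashed lines mark -1.5 and 1.5, the size used for calling. The interval of Birc5 in TKO against wt mice, from -1.72 to 0.08, was the only one to cross a dashed line.

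The members varied more between mice of a genotype than most genes did. The SD of log2 CPM between mice, pooled over genotypes, had a median of 0.377 over the members and 0.293 over 13628 tested genes. In Zmat3-/- mice the medians were 0.245 and 0.123 and in TKO mice 0.488 and 0.221, whereas in wt mice they were 0.328 and 0.375. TKO mouse 3 exceeded the mean of TKO mice 1 and 2 for all 41 members, by a median of 0.84 on the log2 scale (0.38 for Cks2 to 1.16 for Mki67), where the median over 11985 protein-coding genes was 0.22. Zmat3-/- mouse 4 was the lowest of its genotype for all 41 members, and Zmat3-/- mice 1 and 2 exceeded mice 3 and 4 for 40, by a median of 0.34 against 0.01 over all protein-coding genes.

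Other values moved with TKO mouse 3. It had the deepest library. Its summed level of the 12 thymocyte genes was the highest (16461 CPM, against 11947 to 14579 CPM in the other mice). So was that of 10 genes of early thymocytes, among them Notch1, Il2ra and Kit (644 CPM, against 269 to 453 CPM). That of 6 myeloid genes was the lowest (128 CPM, against 136 to 262 CPM). Abundant genes weigh most in such sums. Over the 11 mice Rag1 spanned 1603 to 6165 CPM and Notch1 101 to 395 CPM. Il2ra spanned 27.9 to 46.0 CPM and Kit 7.31 to 10.7 CPM. The part of depth and of these genes in the high level of mitotic genes was not tested. Zmat3-/- mouse 4, with 390 CPM of early thymocyte genes, had the lowest value of its genotype, where mice 1 to 3 had 421, 453 and 426 CPM, but it had the highest summed level of the 12 thymocyte genes there (14107 CPM). In wt mouse 1, with the highest summed level of mitotic genes in its group, early thymocyte genes were at 303 CPM, below the 451 and 433 CPM of wt mice 3 and 4.

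Within the wt group the members fell apart by transcript length. wt mice 1 and 2 exceeded wt mice 3 and 4 for 10 of 12 members whose principal transcript had at most 2500 bases (median log2 ratio 0.54), among them Ube2c (1.06), Birc5 (1.05) and Cks2 (0.72), and were lower for 5 of 5 members above 5000 bases (median -0.68), such as Kif20b (-0.89) and Mki67 (-0.73). Over all protein-coding genes the medians of the same length classes were 0.63 and -0.65. Across the 41 members, which are not independent replicates, Pearson's r with the log2 length was -0.75 and Spearman's rho -0.75, and across 11985 protein-coding genes they were -0.59 and -0.65. The same contrast in Zmat3-/- mice gave a rho of -0.59 over the members and -0.24 over all genes, and TKO mouse 3 against mice 1 and 2 gave 0.38 and 0.32. Sums of other genes differed between the same wt mice. In wt mice 1 to 4 the B-cell genes summed to 731, 849, 491 and 484 CPM and the stromal genes to 110, 99.8, 24.3 and 41.8 CPM. The S-phase genes summed to 4907, 3552, 2918 and 2783 CPM. The erythroid genes went the other way, at 1079, 880, 8558 and 2172 CPM. The part of cell composition in the split was not tested, and RNA quality was not measured in these files.

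**Figure D4:**
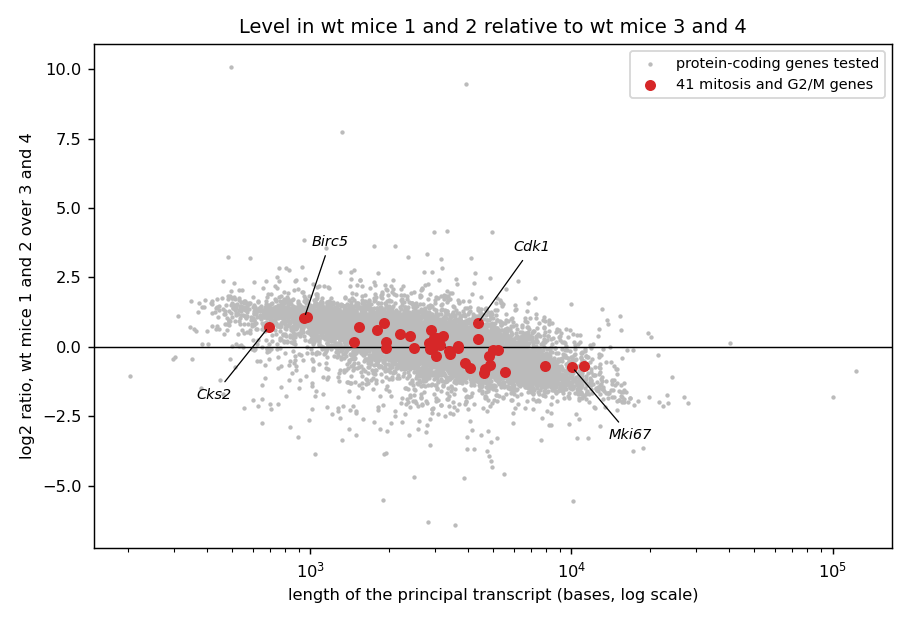
Log2 ratio of the level in wt mice 1 and 2 to that in wt mice 3 and 4 (vertical axis) against the length of the principal transcript in bases (log scale), for 11985 protein-coding genes (grey) and the 41 members (red). Short members such as Birc5 (1.05) mostly lay above 0 and long members such as Mki67 (-0.73) below.

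The wt mice 1 and 2 and the Zmat3-/- mice 1 and 2 were those with a high Xist level, so the comparison was repeated in each class of 2 against 2 mice, a split made after the data were seen. Between the mice with low Xist, 40 of 41 members were lower in Zmat3-/- (median log2FC -0.20), and 12 had an adjusted p under 0.05 by edgeR, all lower, against 28.2% of all genes tested. These were Mki67, Top2a, Kif23, Kif2c, Cenpf, Tpx2, Prc1, Anln, Ect2, Nuf2, Hjurp and Foxm1, with Anln (-0.56 ± 0.08, SE) and Foxm1 (-0.56 ± 0.10) the most changed. Between the mice with high Xist, 26 members were higher (median 0.09), and 11 of the 12 with an adjusted p under 0.05 were higher and 1, Birc5 (-0.88 ± 0.26), lower, against 42.1% of all genes. When only wt mice 1 and 2 were left out, Anln (-0.48), Hjurp (-0.35) and Foxm1 (-0.39) were lower at an adjusted p under 0.05, against 33% of all genes. In each of these counts the share of members was near or below that of all genes.

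The difference between the classes was tested as an interaction in edgeR. For 11 of 41 members (26.8%) its adjusted p was under 0.05, against 44.2% of 13494 genes. The log2FC in the high class minus that in the low class was largest in Foxm1 (1.14 ± 0.16, SE), Ect2 (1.11 ± 0.17) and Anln (1.11 ± 0.20), and all 11 were lower in Zmat3-/- mice of the low class and higher in those of the high class. The log2 ratio of wt mice 1 and 2 to wt mice 3 and 4 was -0.79 for Foxm1, -0.77 for Ect2 and -0.93 for Anln. The same ratio in Zmat3-/- mice was 0.32, 0.32 and 0.16. The Xist class and the difference between wt mice 1 and 2 and wt mice 3 and 4 hold the same mice, and cannot be told apart.

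**Figure D5:**
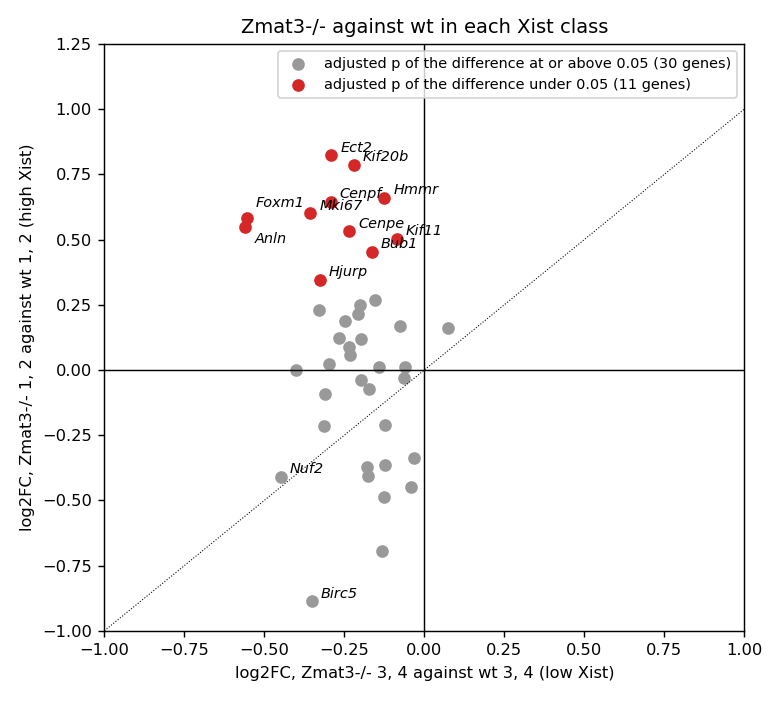
Log2FC of each member in Zmat3-/- against wt mice among the mice with low Xist (horizontal axis) and among those with high Xist (vertical axis), 2 mice per genotype in each. Red marks the 11 members whose difference between the classes had an adjusted p under 0.05, and the dotted line marks equal values. Foxm1 (-0.55 and 0.58) and Anln (-0.56 and 0.55) lay farthest to the left of the red points.

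Other genes of the pathway were taken from 5 lists, of further mitotic kinases and cyclins (14), kinetochore and checkpoint genes (33), spindle and cytokinesis genes (24), condensin, cohesin and anaphase-promoting complex genes (21) and subunits and regulators of DREAM (17). Of the 109 genes 108 were tested, and 0 had an adjusted p under 0.05 by edgeR in any comparison. An unadjusted p under 0.05 was found for 13 in Zmat3-/- against wt mice (3 higher, 10 lower), against 16.1% of all genes. It was found for 9 in TKO against wt (1 higher, 8 lower), against 10.3% of all genes, and for 1 (against 4.5%), the kinetochore gene Cenph (-0.47 ± 0.16, SE), in TKO against Zmat3-/- mice. Cenpt, a kinetochore protein that links DNA to the NDC80 complex, came closest, with 44.4, 39.5, 34.3 and 34.4 CPM in wt, 27.4, 27.7, 26.5 and 23.8 CPM in Zmat3-/-, and 25.4, 23.7 and 29.3 CPM in TKO mice. Every mutant mouse was below every wt mouse, as for 6.75% and 5.15% of all genes. Its log2FC was -0.53 ± 0.11 (SE, adjusted p = 0.0705) in Zmat3-/- and -0.59 ± 0.13 (adjusted p = 0.206) in TKO against wt mice by edgeR, and DESeq2 gave adjusted p = 0.000373 and 0.00306. The kinase Nek6 had 6.78, 8.19, 7.80 and 7.92 CPM in wt and between 8.68 and 13.3 CPM in the 4 Zmat3-/- mice. The 3 TKO mice lay between 8.72 and 11.05 CPM, so that every mutant mouse was above every wt mouse, as for 7.31% of all genes in Zmat3-/- and 6.95% in TKO mice. In Zmat3-/- mice the log2FC was 0.56 ± 0.16 (adjusted p = 0.138 by edgeR and 0.0179 by DESeq2).

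The lowest p in the other lists against wt belonged to Fam83d (0.53 ± 0.19 in Zmat3-/-, 0.69 ± 0.26 in TKO), Fbxo5 (-0.37 ± 0.15 and -0.37 ± 0.18), the DREAM subunit Lin37 (-0.66 ± 0.21 and -0.63 ± 0.24) and, among kinases and cyclins in TKO, Ccnf (-0.65 ± 0.27), all with an adjusted p above 0.05. In TKO against Zmat3-/- mice the genes with the lowest p in these lists were Nek6, Cep55, Hmgb2 and Lin52, between -0.23 and -0.17. Of 30 S-phase genes 0 had an adjusted p under 0.05, with the lowest p for the replicative helicase subunit Mcm2 (0.26 ± 0.11) in Zmat3-/- against wt and Gins3 (-0.31 ± 0.15) in TKO against wt mice. In TKO against Zmat3-/- mice 29 of the 30 were on the lower side (median -0.06).

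Some members share sequence or position with other genes. Ccna2 and Ect2 lie on chromosome 3, with starts 4230073 and 5237570 bases from that of Zmat3, and their log2FC in Zmat3-/- against wt mice was -0.02 and 0.22. Of the 31-base words in their transcripts, Cks2 shared 31.7%, Ccnb1 27.7% and Cdc20 25.5% with transcripts of other genes, mostly pseudogenes with at most 0.0651 CPM, and the other 38 members at most 7.86%. The library kit did not keep strand, so reads of genes on opposite strands cannot be told apart where exons overlap. More than 10% of the exon bases were shared with a gene on the other strand in 6 members, Kif20a (29.3%, with Cdc23), Ube2c (22.8%, with Tnnc2), Kif4 (15.1%, with Pdzd11), Cdc25c (12.7%, with Gm3550), Ccna2 (12.5%, with Exosc9) and Prc1 (11.1%, with Rccd1).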

How the data were processed

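Thymocyte RNA was sequenced in 4 wt, 4 Zmat3-/- and 3 TKO samples. The authors prepared libraries with the TruSeq RNA Prep Kit v2, ran nf-core/rnaseq with Salmon on GRCm38.p6 with GENCODE vM25, and deposited the expected counts per gene without normalization. All 598598 values are whole numbers, so rounding changed none. Of 54418 genes, 54166 had an Ensembl identifier in GENCODE M21 for names, positions and transcript lengths, and 252 were not. Groups and replicate numbers were taken from the sample labels.

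Genotypes were compared pairwise on the whole table with edgeR 4.0.16 (R 4.3.3, limma 3.58.1), using TMM normalization and the two-sided quasi-likelihood test with Benjamini-Hochberg adjustment over all genes tested. A gene entered the test when enough mice to fill the smaller group had 20 or more counts after scaling to the library with the lowest total. Xist, genes on chromosome Y, rRNA genes and immunoglobulin pseudogenes were left out. SE was obtained from log2FC and F, as |log2FC|/sqrt(F). CPM used TMM factors over all 11 mice. The study used DESeq2 1.40.0 (from the submitters' processing notes) with sex and surrogate variables. Here DESeq2 1.42.0, 1 surrogate variable (sva 3.50.0) and the Xist level as a number were alternatives, with RLE size factors, other low-count filters, a joint fit of the 3 genotypes, a replicate block and each mouse left out. The fits were tested on simulated data. 3 counts correspond to 0.0403 CPM in the largest and 0.167 CPM in the smallest library, and such floors cover counting error only.

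Deviations from the group means correlated between samples with the same replicate number in Zmat3-/- and wt mice (0.34, 0.13, 0.26 and 0.30 for numbers 1 to 4). This is a hint of pairing from the data and not from the design. The main fit was unpaired, and the fit with the replicate block was run as an alternative. Different numbers of the same Xist class correlated as well (0.16 to 0.38), and numbers of different classes correlated negatively (-0.38 to -0.15). Deviations from a group mean cancel out within the group, so positive values for some numbers bring negative ones for others. Pairing and class cannot be told apart. In that comparison the fit with the replicate block gave 0 members with an adjusted p under 0.05 and 2, Birc5 and Nuf2, with an unadjusted p under 0.05 (15.3% of all genes), where the fit without it gave 0 (16.1%).

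The members and lists were chosen with earlier results of these data known. Values in every mouse are given for Mki67, Top2a, Ccnb1, Ccna2, Cdk1, Foxm1, Aurkb, Cdc20, Birc5, Cenpa, Kif11 and Anln, for members with an adjusted p under 0.05 and for the 3 with the lowest p in each comparison. Of other genes, the lowest p in each list is named. One of these is not reported here. Within-class fits by Xist level were added after the data were seen. Sequence motifs were searched on both strands of the RefSeq promoter windows with Python 3 scripts.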

Additional observations from a re-analysis of the deposited data

Results flagged for a closer look

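In 5 of 84 groups of 4 mice (each member and their sum, in wt and in Zmat3-/- mice), 1 mouse lay far from the other 3 by Dixon's test, where chance gives about 1 in 20. In all 5 it was wt mouse 1, the highest, for Ccna2 (243 CPM, next 166), Tpx2 (185 CPM, next 122), Nek2 (72.4 CPM, next 43.6), Racgap1 (156 CPM, next 101) and Tacc3 (168 CPM, next 93.9). The log2FC of Zmat3-/- against wt differed between mice with high and low Xist, by a test of the interaction (edgeR, adjusted p under 0.05), for 11 members. These classes and the difference between wt mice 1 and 2 and wt mice 3 and 4 hold the same mice, and cannot be told apart. The log2FC in the high minus that in the low class was 1.14 for Foxm1, 1.11 for Ect2, 1.11 for Anln, 1.01 for Kif20b, 0.96 for Mki67, 0.94 for Cenpf, 0.79 for Hmmr, 0.77 for Cenpe, 0.67 for Hjurp, 0.62 for Bub1 and 0.59 for Kif11. With 2 mice per genotype in each class, and 44.2% of all genes past the same threshold, the share of members was below that of all genes.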

How the results depend on the processing

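Under every alternative 0 members were called DE in each comparison, and 0 had an adjusted p under 0.05 except in fits of Zmat3-/- against wt that split the mice after the data were seen (3 without wt mice 1 and 2, 12 among mice with low Xist and 12 among mice with high Xist). An unadjusted p under 0.05, found for 0 members in the main comparisons, was found in Zmat3-/- against wt for 1 by DESeq2 (19.6% of all genes) and for 2 without a low-count filter (9.6%), with the replicate block (15.3%), with the Xist level (21.5%) and with 1 surrogate variable (35.6%), for 4 without wt mice 1 and 2 (44.6% of all genes), 21 among mice with low Xist (40.1%) and 14 among mice with high Xist (51.5%), and for 0 to 2 with each mouse left out. In TKO against wt it was found for 1 by DESeq2 (13.2%), without a filter (6.13%), with all 3 genotypes in one fit (18.1%), with the replicate block (16.2%), without wt mice 1 and 2 (28.6%) and among mice with low Xist (25.8%), for 3 with 1 surrogate variable (9.19%), and for 0 to 2 with each mouse left out. In TKO against Zmat3-/- it was found for 1 with the replicate block (4.27%), 2 with 1 surrogate variable (5.75%) and 0 to 18 with each mouse left out (18 without TKO mouse 3, 6.25%). Causes were not tested. Of the pathway lists, DESeq2 gave 2 genes with an adjusted p under 0.05 in Zmat3-/- (8.04% of all genes) and 1 in TKO against wt (2.87%), where edgeR gave 0. The log2FC of Mki67 (-0.36) and Top2a (-0.21) among mice with low Xist and of Foxm1 (0.59) and Anln (0.55) among mice with high Xist had the opposite sign of that over all mice. The median log2FC of the members with each mouse left out was -0.17 to 0.03 in Zmat3-/- against wt, -0.35 to 0.03 in TKO against wt and -0.28 to 0.05 in TKO against Zmat3-/-, and it was above 0 in Zmat3-/- against wt without wt mouse 1 (0.03, 29 members higher) and without Zmat3-/- mouse 4 (0.01, 22 higher). Without the mice with high Xist, 41 members were higher in TKO against Zmat3-/- (median 0.25) and 26 in TKO against wt (0.04). With the replicate block the median was -0.15 in TKO against wt and -0.16 in TKO against Zmat3-/-, and with 1 surrogate variable -0.20 and -0.14. In TKO against Zmat3-/- 40 members were lower in each of these fits. In Zmat3-/- against wt the medians were -0.05 with the block and -0.06 with the surrogate variable. Over all alternatives 5, 8 and 0 of the 41 members kept their sign in Zmat3-/- against wt, TKO against wt and TKO against Zmat3-/-. The same replicate numbers correlated at 0.07, 0.30 and 0.41 between TKO and wt mice, where different numbers reached at most 0.28. Between TKO and Zmat3-/- mice they correlated at 0.19, 0.01 and 0.17, where different numbers reached at most 0.20. Whether the numbers pair these mice cannot be told from these values. The block changed no call by adjusted p. Among TKO mice only 1 had high Xist, so a comparison of TKO among such mice has 1 TKO mouse and was not run. The 95% intervals were 0.41 to 1.79 wide on the log2 scale, and the lowest count of a member in a mouse was 142. The part of depth in their width was not tested.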
